A study of Mus musculus with 10 samples.

Results

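The 10 genes described here encode the tricarboxylic acid (TCA) cycle enzymes that lead from 2-oxoglutarate to malate, the stretch of the cycle that the GABA shunt bypasses in part. They are Ogdh, Dlst, Sucla2, Suclg1, Suclg2, Sdha, Sdhb, Sdhc, Sdhd and Fh1, chosen by name from the 35275 genes of the count table, and each was found there once. They were measured by RNA sequencing in 10 libraries of retina from C57BL/6 mice aged 10 to 12 weeks. Of these, 5 came from vehicle mice, and the other 5 from mice that received 140 mg/kg/day of vigabatrin over 11 days through a subcutaneous osmotic pump. The control titles read untreated while the treatment label reads vehicle. Each library is called by its group and title number. Whether libraries come from different animals is not stated in the labels, so the p-values reflect only the spread among these libraries, which may be technical.

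In the TCA cycle the 2-oxoglutarate dehydrogenase complex makes succinyl-CoA, succinyl-CoA ligase turns it into succinate while forming ATP or GTP, succinate dehydrogenase (complex II of the respiratory chain) oxidises succinate to fumarate, and fumarase hydrates fumarate to malate. The GABA shunt takes 2-oxoglutarate out as glutamate, which is decarboxylated to GABA. GABA transaminase (Abat) and succinate semialdehyde dehydrogenase (Aldh5a1) return it as succinate, past the first 2 of these enzymes. Vigabatrin, used against epilepsy, blocks GABA transaminase irreversibly. The retina is among the tissues of highest energy demand, and its photoreceptor inner segments are packed with mitochondria.

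Total counts ranged from 36056135 to 54052502 per library, and the 10 genes together took between 0.102% and 0.108% of them. All 8 marker lists of retinal cell types, their microglia and vessels included, had every marker detected in every library. Lens markers stood apart in 4 libraries, called lens-rich below (vehicle 835 and 1582, vigabatrin 2344 and 2429), where they summed to between 11550 and 17658 counts per 1000000 (CPM) against at most 842 CPM in the other 6. Of the 8 lens markers, 7 were tested and Lim2 was at 0 in every library. Markers of the pigment epithelium with the choroid summed to between 24.7 and 1424 CPM in vehicle and between 11.2 and 614 CPM after vigabatrin, with all 8 markers tested. Cornea markers summed to at most 12.8 CPM, and red blood cell markers to between 28.5 and 288 CPM. Values without the 4 lens-rich libraries are given beside a result where they turn its direction or move it by more than 1.5 times.

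The genes lie on 8 chromosomes of mm10. The 2-oxoglutarate dehydrogenase genes Ogdh and Dlst lie on chromosomes 11 (6291633 to 6356642, plus strand) and 12 (85110833 to 85134091, plus strand). Sucla2 lies on chromosome 14 (73525319 to 73596142, plus strand), and Suclg1 (73248382 to 73276911, plus strand) and Suclg2 (95474134 to 95718837, minus strand) both lie on chromosome 6. Of the succinate dehydrogenase genes, Sdha lies on chromosome 13 (74322254 to 74350280, minus strand), Sdhb on chromosome 4 (140961203 to 140979193, plus strand), Sdhc on chromosome 1 (171127165 to 171150603, minus strand) and Sdhd on chromosome 9 (50596338 to 50603849, minus strand). Fh1 lies on chromosome 1 (175600374 to 175625635, minus strand). In GENCODE M21, Fh1 overlaps Kmo and Sdha overlaps the processed pseudogene Gm16125, each on the opposite strand. Without knowledge of the strand setting used in counting, reads of a gene and its partner cannot be told apart.

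Promoter windows of 300 bases (250 before to 50 after the start site, RefSeq, GRCm38.p6) were found for 9 of the 10 genes, all but Sdhc, with 6 windows for Ogdh. They were searched on both strands for motifs of 4 factors linked to genes of mitochondrial energy metabolism. The motif of nuclear respiratory factor NRF1 (GCGCANGCGC) was found for 3 of the 9 genes, against 5.19% of the 27025 genes with a window (4.6% of all 32851 windows). Sdha, the gene of the catalytic subunit and the most abundant of the 10, held 3 matches, and Sdhd and Sucla2 held 1 each. These stretches are shown because they are a feature that the choice of genes did not use. Capitals mark the match, the number is the position of its first base from the start site, and each sequence reads along the gene:
Sdha -98 (chr13:74350309-74350358, minus strand): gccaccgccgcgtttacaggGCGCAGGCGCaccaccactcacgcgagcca
Sdha -55 (chr13:74350266-74350315, minus strand): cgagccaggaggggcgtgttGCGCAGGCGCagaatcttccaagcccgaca
Sdha -10 (chr13:74350221-74350270, minus strand): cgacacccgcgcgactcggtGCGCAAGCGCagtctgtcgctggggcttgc
Sdhd -79 (chr9:50603899-50603948, minus strand): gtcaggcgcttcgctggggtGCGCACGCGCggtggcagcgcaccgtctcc
Sucla2 -17 (chr14:73552749-73552798, plus strand, motif on the opposite strand): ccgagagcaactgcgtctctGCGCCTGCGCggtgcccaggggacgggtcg

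The window of Sucla2 lies inside the deposited gene, since RefSeq places the start downstream of the deposited one. The ETS/GABP motif (CCGGAAG) was found for 3 of the 9 genes, Dlst, Sdhb and Sdhd, against 9.93% of all genes (8.86% of windows). In Sdhd it began at position -46, on the opposite strand:
Sdhd -46 (chr9:50603869-50603915, minus strand): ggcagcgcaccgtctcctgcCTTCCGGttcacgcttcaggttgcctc

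The oestrogen-related receptor motif (AAGGTCA) was found for 2 genes, Ogdh and Sdhd, against 5.38% of all genes (4.72% of windows). The YY1 motif (AANATGGC) was found for 1 gene, Ogdh, against 6.96% of all genes (6.05% of windows). Ogdh had 6 windows in which a match could fall. No match of one motif overlapped a match of another in these windows. The windows of Suclg1, Suclg2 and Fh1 held none of the letters searched. A match is a description of the sequence and was not tied to any value below.

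The order of transcript levels was compared per kb of the deposited gene length (RPKM, from the CPM), since only that scale allows genes to be set beside each other. Sdha, which carries the flavin and oxidises succinate, was highest at 125 ± 2.97 RPKM (SD, n = 10 libraries of both groups). Ogdh, the first subunit of the 2-oxoglutarate dehydrogenase complex, followed at 65.9 ± 1.36 RPKM. Sdhb had 36.4 ± 2.24, Dlst 33.9 ± 0.447, Sucla2 30.8 ± 1.23, Sdhd 27.9 ± 2.49 and Sdhc 21.9 ± 0.975 RPKM. Suclg1 and Fh1 had 15.8 ± 0.537 and 15.2 ± 0.573 RPKM, and Suclg2 was lowest at 4.81 ± 2.54 RPKM. The ranges over libraries of Sdhb and Dlst, of Sucla2 and Sdhd, and of Suclg1 and Fh1 overlapped, although Sdhb lay above Dlst in all 10 libraries, Sucla2 above Sdhd in 9 and Suclg1 above Fh1 in 8. The other neighbours in this order did not overlap. On the same scale the shunt genes Abat and Aldh5a1 had mean levels of 28.9 and 7.07 RPKM.

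**Figure D1:**
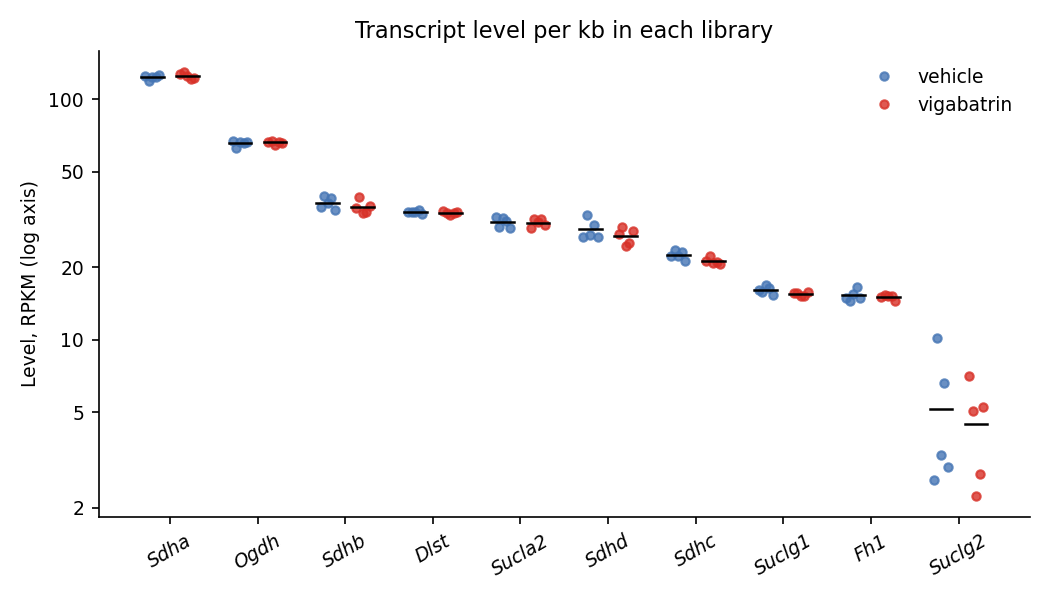
Transcript level of the 10 genes in RPKM on a log axis, with each point a library, blue for vehicle and red for vigabatrin, and black bars the group means. Sdha is highest in every library, between 119 and 130 RPKM, and Suclg2 is lowest, between 2.25 and 10.2 RPKM, with the widest scatter.

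Vigabatrin and vehicle libraries were compared to ask whether transcripts of these enzymes differed. The drug's target lies in GABA breakdown, which feeds succinate into the cycle, but these libraries do not measure the inhibition itself. None of the 10 genes passed the test, in either direction (edgeR quasi-likelihood test over 17435 genes, Benjamini-Hochberg adjusted p between 0.661 and 0.988). This stood beside 1 gene called among all tested, or 0.00574%. In whole retina, fewer cells of a type and less RNA per cell cannot be told apart. At an unadjusted p under 0.05 there was 1 of the 10, Sdhc, against 7.36% of all tested genes. The DESeq2 Wald test and limma-voom with quality weights gave Sdhc an unadjusted p of 0.0297 and 0.0394. At an adjusted p under 0.05 they also called 0 of the 10, beside 85 and 3 genes among all tested. The fitted means were lower after vigabatrin for 8 genes and higher for 2, Ogdh and Sdha, where 50.6% of all tested genes were lower. The median log2 fold change of the 10 was -0.037, against -0.001 over all tested genes. For none of the 10 did the 5 vigabatrin libraries lie wholly above or below the 5 vehicle libraries, as they did for 1.48% of all tested genes (wholly below for 0.631%).

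The precision of these differences was high for 9 of the 10 genes. Across Ogdh, Dlst, Sucla2, Suclg1, Sdha, Sdhb, Sdhc, Sdhd and Fh1, the 95% intervals of the fold change reached furthest down for Sdhd, from -16.2% to 4.68% relative to vehicle, and furthest up for Sdha, from -3.51% to 6.51%. The interval of Suclg2 ran from -54.0% to 64.9%. All vigabatrin titles but only 1 vehicle title carry a number above 2300, and what the numbers stand for is not stated. With a term for this title range, so that vehicle 2345 alone stands against the vigabatrin libraries, 3 of the 10 were lower and the median was 0.013. When the 4 lens-rich libraries were left out, 6 were lower and the median was -0.0094, and with lens and pigment epithelium levels as terms 7 were lower and the median was -0.017. The count of lower genes and their median thus depend on how these libraries are compared.

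**Figure D2:**
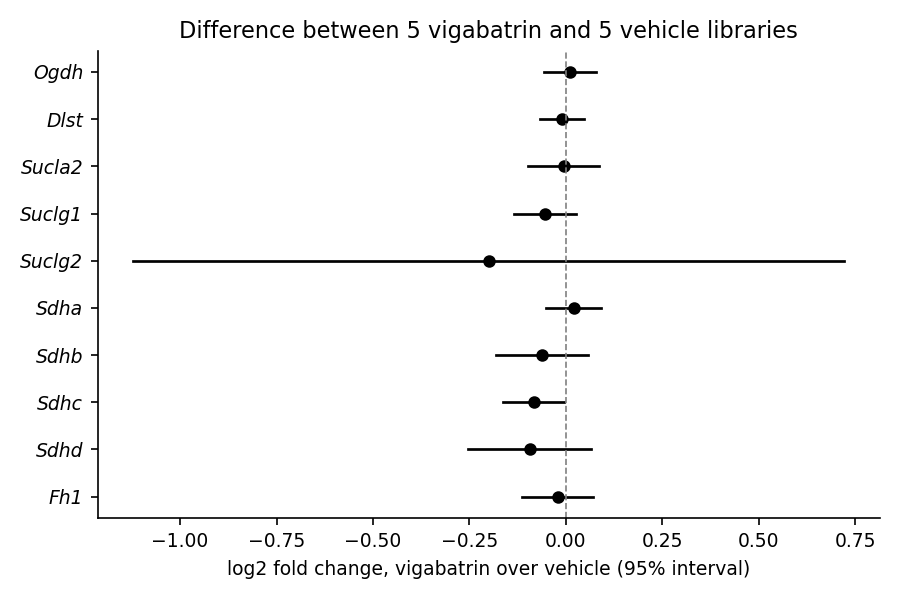
Log2 fold change of each gene, vigabatrin over vehicle, as points with 95% intervals from the edgeR fit (5 libraries per group, dashed line at no difference). The intervals of 9 genes are narrow and that of Suclg2 runs from -1.12 to 0.72, while that of Sdhc ends just below 0.

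Among the 10 genes, Dlst and Ogdh of the 2-oxoglutarate dehydrogenase complex varied least. Dlst, which encodes the succinyltransferase core of the complex, measured 93.6, 93.7, 94.0, 96.1 and 92.6 CPM in vehicle 832, 835, 1580, 1582 and 2345. It measured 94.7, 93.3, 91.6, 92.9 and 94.4 CPM in vigabatrin 2344, 2347, 2349, 2428 and 2429. The groups overlapped throughout, and the highest library was only 1.05 times the lowest (log2 fold change -0.009, SE 0.026, adjusted p = 0.962). The SD of Dlst within groups was 0.019 on the log2 scale, at percentile 0.0765 of the 3920 tested genes whose level lay within 2-fold of its own, and about the 0.022 that counting alone gives. Ogdh measured between 259 and 276 CPM in vehicle and between 265 and 278 CPM in treated libraries (edgeR log2 fold change 0.011, SE 0.031, adjusted p = 0.963). Its lowest library in either group was vehicle 835, at 259 CPM. Without vehicle 835 its log2 fold change was -0.004 and without the 4 lens-rich libraries -0.009, so its small difference has no fixed direction. Per kb, Ogdh stood to Dlst as 1.86 to 1.98 in vehicle and as 1.92 to 1.99 after vigabatrin.

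Succinyl-CoA ligase pairs the alpha subunit Suclg1 with a beta subunit, Sucla2 in the enzyme that forms ATP or Suclg2 in the one that forms GTP. Suclg1 measured 44.6, 43.5, 46.6, 45.4 and 42.5 CPM in vehicle 832, 835, 1580, 1582 and 2345, and 43.4, 43.5, 41.9, 42.1 and 43.7 CPM in vigabatrin 2344, 2347, 2349, 2428 and 2429. A vigabatrin library was below a vehicle library in 21 of the 25 pairs, with a difference that did not pass the test (log2 fold change -0.054, SE 0.036, adjusted p = 0.793). Sucla2 measured between 65.3 and 72.1 CPM in vehicle and between 64.9 and 71.1 CPM after vigabatrin, and the groups overlapped over nearly their whole range (log2 fold change -0.006, SE 0.041, adjusted p = 0.988). Its sign turned without vehicle 832 (0.007), without vehicle 1580 (0.006), without vigabatrin 2344 (0.012) and without the 4 lens-rich libraries (0.011).

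Suclg2 behaved unlike the other 9 genes. It measured 5.97, 23.2, 7.59, 15.0 and 6.76 CPM in vehicle 832, 835, 1580, 1582 and 2345. After vigabatrin it measured 16.0, 11.5, 5.12, 6.31 and 12.0 CPM in 2344, 2347, 2349, 2428 and 2429. Each group held high and low libraries, and the highest was 4.52 times the lowest, against 1.05 to 1.35 times for the other 9 genes. Its counts, between 245 and 1092, were lower than those of the others, but counting gives an SD of only 0.072 on the log2 scale, where the SD within groups was 0.77. That SD lay at percentile 97 of the 3863 tested genes of like level. The means were 11.7 ± 7.36 CPM in vehicle and 10.2 ± 4.47 CPM in treated libraries (SD, n = 5 each), with a log2 fold change of -0.20, SE 0.42 and adjusted p = 0.949.

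Suclg2 was higher in the lens-rich libraries. All 4 lens-rich libraries, between 12.0 and 23.2 CPM, lay above the other 6, between 5.12 and 11.5 CPM, whereas the ranges of the other 9 genes overlapped between these libraries. This held within each group: 15.0 and 23.2 CPM against 5.97 to 7.59 CPM in vehicle, and 12.0 and 16.0 CPM against 5.12 to 11.5 CPM after vigabatrin. The highest of the 6, vigabatrin 2347 at 11.5 CPM, had the lowest lens markers of all (2.17 CPM) and 188 CPM of pigment epithelium markers. Vehicle 832 had 202 CPM of pigment epithelium markers and yet only 5.97 CPM of Suclg2. With the levels of both marker lists as terms the log2 fold change was 0.13 with an SE of 0.18, down from 0.42. It was 0.17 without the 4 lens-rich libraries, 0.21 without vehicle 835 and 0.59 with the title range term, so its sign is not settled by these libraries. Without vigabatrin 2344 it was -0.42. Whether the neighbouring tissue supplied Suclg2 transcripts was not tested.

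**Figure D3:**
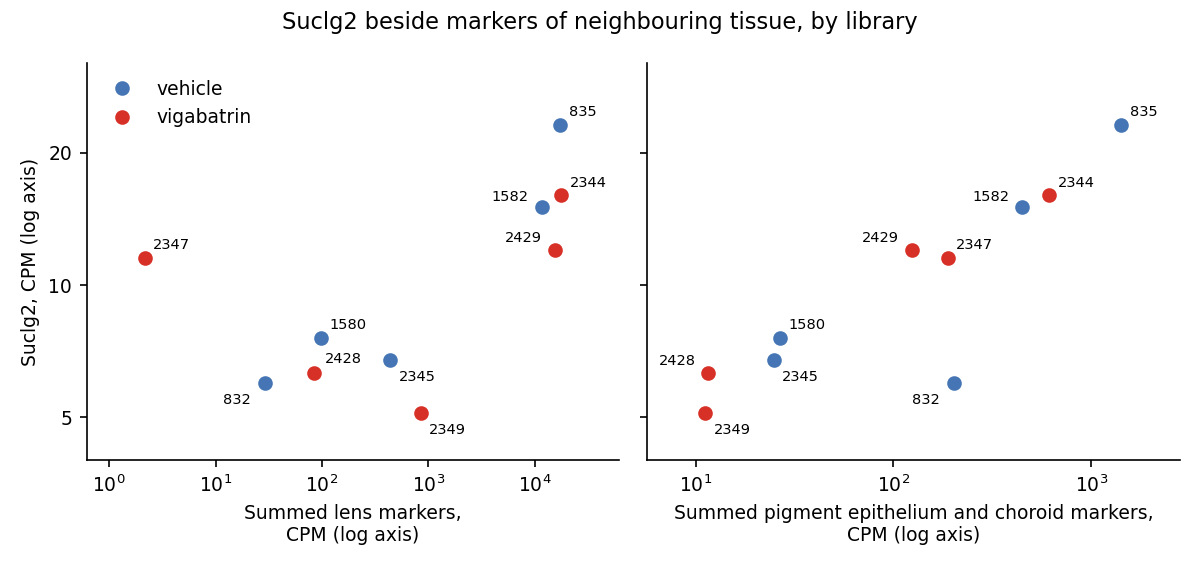
Suclg2 in CPM against the summed CPM of 8 lens markers (left) and of 8 pigment epithelium and choroid markers (right), on log axes, with each library labelled by its title number, blue for vehicle and red for vigabatrin. The 4 lens-rich libraries lie between 12.0 and 23.2 CPM, vigabatrin 2347 is high with few lens transcripts, and vehicle 832 is low with 202 CPM of pigment epithelium markers.

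The make-up of the beta subunit transcripts varied widely among the libraries of each group. Per kb, Suclg2 made up 7.49%, 25.7%, 9.43%, 17.4% and 9.20% of both beta subunit transcripts in vehicle 832, 835, 1580, 1582 and 2345. It made up 19.5%, 13.8%, 6.78%, 7.99% and 14.9% in vigabatrin 2344, 2347, 2349, 2428 and 2429. Sucla2 was thus the major beta subunit transcript in all 10 libraries, from 2.89 times Suclg2 in vehicle 835 to 13.7 times in vigabatrin 2349. The log2 ratio of Sucla2 to Suclg2 differed by 0.11 between groups (exact two-sided permutation test, p = 0.825, adjusted over 6 ratios 0.825; n = 5 each). This difference was -0.081 without the lens-rich libraries and ran from -0.207 (without vehicle 835) to 0.322 (without vigabatrin 2344) when 1 library was left out. The ratio of Suclg1 to the sum of both beta subunits, between 0.398 and 0.477 in all libraries, differed by -0.024 (exact p = 0.683, adjusted 0.819). Leaving out 1 library moved this from -0.067 (without vehicle 835) to -0.0012 (without vehicle 1580), and it was -0.096 without the lens-rich libraries.

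Succinate dehydrogenase is built of the catalytic flavoprotein Sdha, the iron-sulphur protein Sdhb and the membrane anchors Sdhc and Sdhd. Sdha measured 362, 346, 360, 360 and 367 CPM in vehicle 832, 835, 1580, 1582 and 2345 and 369, 377, 363, 354 and 357 CPM in vigabatrin 2344, 2347, 2349, 2428 and 2429. Vehicle 835 was its lowest library and vigabatrin 2347 its highest, and the groups otherwise overlapped (log2 fold change 0.020, SE 0.032, adjusted p = 0.933; 0.0065 without vehicle 835 or without vigabatrin 2347, and 0.0062 without the lens-rich libraries). Sdhb measured 43.9, 48.8, 45.8, 47.9 and 42.6 CPM in vehicle, in the same order, and 43.6, 48.4, 41.3, 41.7 and 44.2 CPM after vigabatrin. The highest vigabatrin library, 2347, reached the top of the vehicle range (log2 fold change -0.062, SE 0.055, adjusted p = 0.852).

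Sdhc was the gene of smallest p among the 10. It measured 70.6, 74.7, 70.6, 73.4 and 67.7 CPM in vehicle 832, 835, 1580, 1582 and 2345, and 67.5, 70.6, 66.0, 67.0 and 65.7 CPM in vigabatrin 2344, 2347, 2349, 2428 and 2429. A vigabatrin library was below a vehicle library in 23 of the 25 pairs, since vigabatrin 2347, at 70.601 CPM, lay above vehicle 2345 and just above vehicle 832 at 70.562 CPM. Means were 71.4 ± 2.75 CPM in vehicle and 67.4 ± 1.95 CPM in treated libraries (SD, n = 5 each), a log2 fold change of -0.084 with an SE of 0.036 (unadjusted p = 0.0413, adjusted p = 0.661 by edgeR's quasi-likelihood test). An unadjusted p under 0.05 with a lower mean was found for 3.69% of all tested genes. The log2 fold change of Sdhc was -0.037 without the 4 lens-rich libraries and -0.006 with the title range term, where vehicle 2345 at 67.7 CPM stands alone for vehicle. Over all alternatives its adjusted p lay between 0.333 and 0.9998.

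Sdhd, the other anchor, measured 34.4, 42.7, 35.2, 38.8 and 34.4 CPM in vehicle and 35.4, 37.8, 31.6, 32.6 and 36.4 CPM in treated libraries, in the same order. Vehicle 835 was the highest library, followed by vehicle 1582, and the groups overlapped (log2 fold change -0.094, SE 0.073, adjusted p = 0.824). Without vehicle 835 the log2 fold change of Sdhd was -0.039, and without the 4 lens-rich libraries it was -0.029 and that of Sdhb -0.009. Leaving out 1 library moved Sdhb from -0.038 (without vehicle 835) to -0.100 (without vigabatrin 2347). With lens and pigment epithelium levels as terms Sdhd measured -0.048 and Sdhb -0.034. Vehicle 835, where both genes were highest, also had the most pigment epithelium markers (1424 CPM).

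Sdhb, Sdhc and Sdhd went up and down together over the libraries, while Sdha did not follow them. All 3 were highest in vehicle 835, at 0.13, 0.11 and 0.25 above their own means over the 10 libraries on the log2 scale, where Sdha was at -0.06. In vigabatrin 2349 they were at -0.11, -0.07 and -0.18, with Sdha near its mean. Pearson's r over the 10 libraries, given as a description of likeness with no test, was 0.91 for Sdhb with Sdhd, 0.85 for Sdhb with Sdhc and 0.79 for Sdhc with Sdhd. Suclg2 shared this order in part (r = 0.89 with Sdhd and 0.74 with Sdhb), and Ogdh and Sdha were most alike to each other (r = 0.67). Sdhb, Sdhd and Suclg2 were all highest in vehicle 835 and lowest in vigabatrin 2349. All genes of a library share its depth and tissue make-up. Both differed among the 10 libraries, with lens markers from 2.17 CPM in vigabatrin 2347 to 17658 CPM in vigabatrin 2344. Whether this lies behind the likeness was not tested.

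**Figure D4:**
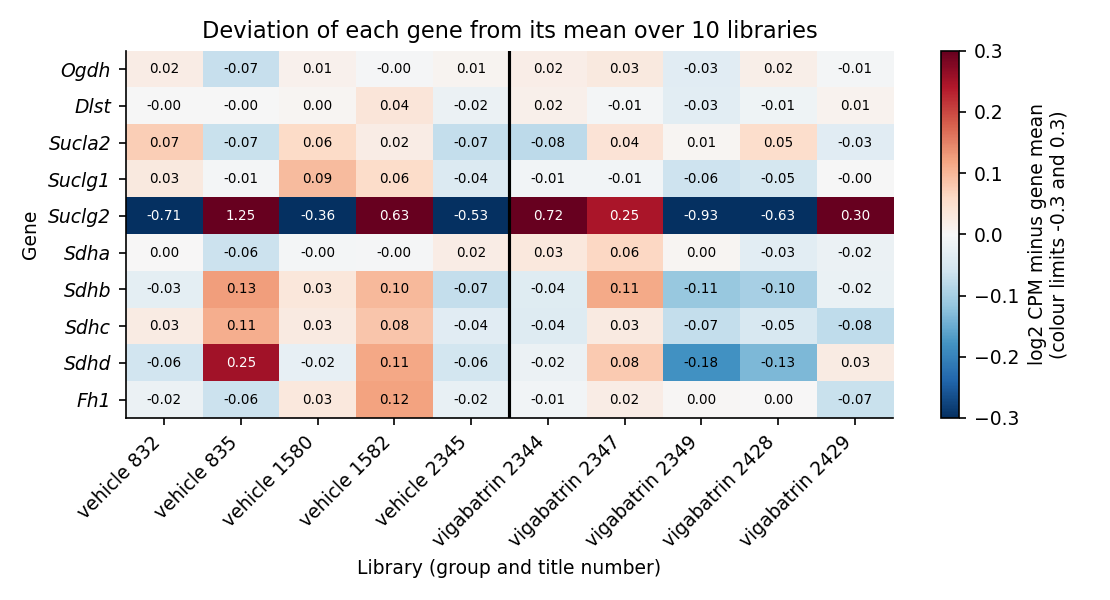
Log2 CPM of each gene (rows) in each library (columns, vehicle left of the line and vigabatrin right) minus the gene's mean over the 10 libraries, red for above and blue for below, with colours limited to 0.3 in either direction and values printed. Sdhb, Sdhc and Sdhd are all red in vehicle 835 and 1582 and blue in vigabatrin 2349 and 2428, and Suclg2 exceeds the colour limits in 9 of the 10 libraries.

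The proportions of the subunits were measured as ratios within libraries, which do not depend on how libraries are scaled. Per kb, Sdha stood to Sdhb as 3.50, 3.01, 3.34, 3.20 and 3.66 in vehicle 832, 835, 1580, 1582 and 2345, and as 3.60, 3.31, 3.73, 3.60 and 3.43 in vigabatrin 2344, 2347, 2349, 2428 and 2429. The lowest was vehicle 835, and the log2 ratio differed by 0.082 between groups, within the spread of the libraries (exact two-sided permutation p = 0.206, adjusted over 6 ratios 0.548; n = 5 each). The sum of Sdha and Sdhb was 2.80 to 3.35 times that of Sdhc and Sdhd in vehicle and 3.24 to 3.50 times after vigabatrin. This log2 ratio differed by 0.089 (exact p = 0.127, adjusted 0.548). Without vehicle 835 the differences were 0.045 for Sdha to Sdhb and 0.048 for the sums, and without the 4 lens-rich libraries 0.017 and 0.036. Ogdh to Dlst differed by 0.021 (exact p = 0.365, adjusted 0.548), by 0.0062 without vehicle 835, by 0.013 without vehicle 1582 and by 0.0026 without the lens-rich libraries. With 5 against 5 libraries the smallest p possible is 0.00794, and 0 of the 6 ratios passed.

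Fh1, fumarase, closes this stretch of the cycle. It measured 39.5, 38.2, 40.8, 43.5 and 39.3 CPM in vehicle 832, 835, 1580, 1582 and 2345 and 39.7, 40.5, 40.0, 40.0 and 38.1 CPM in vigabatrin 2344, 2347, 2349, 2428 and 2429. The vigabatrin libraries lay within the vehicle range but for the lowest (log2 fold change -0.021, SE 0.042, adjusted p = 0.948), and without vehicle 1582, the highest library, the log2 fold change was 0.004. Per kb Fh1 stood to Sdha as 0.118 to 0.133 in vehicle and 0.118 to 0.124 after vigabatrin, a difference of -0.039 in the log2 ratio (exact p = 0.286, adjusted 0.548). It was -0.013 without vehicle 1582 and 0.0056 without the lens-rich libraries.

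For 9 of the 10, the gene of most similar profile over the 10 libraries is given, out of 13162 other genes of at least 1 CPM on average, by Pearson's r of log2 CPM. Suclg2 was most like Mgst1, a membrane-bound glutathione transferase (r = 0.99), which measured 21.5 CPM in vehicle 835 and 2.16 CPM in vigabatrin 2349, its highest and lowest libraries. Sdhd was most like Pbx3 (0.97), Sdhc like Sgk1 (0.97) and Sdhb like Sod1, the cytosolic superoxide dismutase (0.95). The values were 0.97 for Ogdh with Igbp1, 0.95 for Sucla2 with Rasa2, 0.94 for Suclg1 with Auh, 0.93 for Sdha with Lsm6 and 0.93 for Fh1 with Aldh16a1. Each r is the highest of 13162 over only 10 libraries, so high values can come from the picking alone. Whether these pairs are regulated together was not tested. Other genes of the 10 ranked lower. The best of them ranked 16 for Sdhb (Sdhd), 44 for Sdhd (Sdhb), 171 for Sdhc (Sdhb) and 549 for Suclg2 (Sdhd). It ranked 951 for Ogdh (Sdha) and 2684 for Sucla2 (Fh1).

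Neighbouring genes of the pathway gave 0 calls over all genes among the 41 tested of 42 listed (Sucnr1, the succinate receptor, fell under the filter on low counts), with 17 higher and 24 lower means and 3 at an unadjusted p under 0.05. These counts stood near the shares over all tested genes, of which 0.00574% were called, 50.6% were lower and 7.36% had an unadjusted p under 0.05. In the rest of the TCA cycle 7 of 8 had lower means (median log2 fold change -0.040). Of these, Idh3g and Idh3b, regulatory subunits of the NAD-dependent isocitrate dehydrogenase, measured -0.091 (SE 0.047, adjusted p = 0.719) and -0.090 (SE 0.049, adjusted p = 0.737). With the title range term they measured 0.052 and 0.025, and without the lens-rich libraries -0.060 and -0.042. Among 7 genes of pyruvate entry, 5 had higher and 2 lower means, the lower being Pdhb, a pyruvate dehydrogenase subunit (-0.115, SE 0.042, adjusted p = 0.603), and Mpc2, a subunit of the mitochondrial pyruvate carrier (-0.085, SE 0.049, adjusted p = 0.75). With the title range term Pdhb measured -0.0073 and Mpc2 0.059, and without the lens-rich libraries Mpc2 measured -0.019.

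Of 9 genes of the GABA shunt and glutamate entry, 3 had higher and 6 lower means. Aldh5a1, which makes the succinate that leaves the shunt, measured 37.9, 41.2, 37.4, 36.1 and 39.3 CPM in vehicle 832, 835, 1580, 1582 and 2345, and 38.7, 43.1, 43.2, 42.8 and 39.6 CPM in vigabatrin 2344, 2347, 2349, 2428 and 2429. The upper 3 vigabatrin libraries lay above all vehicle ones and the groups otherwise overlapped (log2 fold change 0.11, SE 0.049, unadjusted p = 0.0439, adjusted p = 0.666). Without the lens-rich libraries Aldh5a1 measured 0.173 with an SE of 0.040 (edgeR adjusted p = 0.603). Abat, the drug's target, measured between 129 and 142 CPM in both groups together (log2 fold change 0.044, SE 0.038, adjusted p = 0.85), with a value of 0.071 without vehicle 835 and 0.028 without vigabatrin 2344. Gpt2, the mitochondrial alanine transaminase, measured -0.14 (SE 0.093, adjusted p = 0.793), with -0.075 without vehicle 832 and -0.21 without vehicle 835.

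Dhtkd1 was the only one of the 41 whose groups did not overlap, against 1.48% of all tested genes. It encodes a relative of Ogdh that acts on oxoadipate in lysine breakdown. It measured 8.08, 7.51, 7.50, 8.39 and 8.86 CPM in vehicle 832, 835, 1580, 1582 and 2345, and 9.23, 9.30, 9.66, 9.34 and 10.9 CPM in vigabatrin 2344, 2347, 2349, 2428 and 2429. All 5 vigabatrin libraries were above all 5 vehicle libraries, but the difference did not pass over all genes (log2 fold change 0.26, SE 0.077, unadjusted p = 0.00568, adjusted p = 0.501). It was 0.13 with the title range term. Ogdhl, the other relative of Ogdh, had 131 ± 8.65 CPM in vehicle and 135 ± 2.78 CPM in treated libraries (SD, n = 5 each; log2 fold change 0.033, adjusted p = 0.917). Its mean level of 38.6 RPKM can be set beside the 65.9 RPKM of Ogdh. The log2 fold change of Ogdhl was -0.009 without the 4 lens-rich libraries and -0.109 with the title range term.

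The assembly factors of complex II had 3 of 4 lower means, with Sdhaf2, which helps attach the flavin to Sdha, at -0.040 (SE 0.045, adjusted p = 0.896). Sdhaf1, which helps mature Sdhb, had -0.077 (SE 0.117, adjusted p = 0.928) at about 2 CPM. With the title range term Sdhaf1 measured 0.119, and without the lens-rich libraries Sdhaf1 measured -0.015 and Sdhaf2 -0.026. Of 6 tested genes on side routes of succinyl-CoA and succinate, 3 were higher and 3 lower. Slc25a10, the mitochondrial dicarboxylate carrier, measured 0.109 (SE 0.053, adjusted p = 0.701) and 0.071 without the lens-rich libraries. Oxct1, which moves CoA from succinyl-CoA to acetoacetate, measured -0.140 (SE 0.082, adjusted p = 0.75), -0.032 with the title range term and -0.061 without the lens-rich libraries. Of the 4 cytosolic counterparts 3 had lower means, with Mdh1, the cytosolic malate dehydrogenase, at -0.076 (adjusted p = 0.767), 0.019 with the title range term and -0.010 without the lens-rich libraries. Idh1, the cytosolic isocitrate dehydrogenase, measured 0.051 (adjusted p = 0.86), 0.101 without the lens-rich libraries and 0.014 without vigabatrin 2347.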

How the data were processed

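The table deposited by the authors holds unnormalised read counts by Ensembl gene. Per the submitters' processing notes, the genome was mm10 and the tools included HTSeq 0.6.1, DESeq2 and edgeR 3.16.5. Aligner, annotation release and strand setting were not given in the sources used here. The deposited gene length served for RPKM. Of the table's count columns, 1 matches no sample used here and entered no step. After filterByExpr and TMM scaling, the quasi-likelihood test of edgeR 4.0.16 (R 4.3.3), with treatment group alone in the design, was run over 17435 genes at a Benjamini-Hochberg adjusted p under 0.05. Standard errors were taken as the absolute log2 fold change over the root of F, with a median of 0.088 over all genes. CPM use TMM library sizes. Ratios were tested by exact permutation over 252 assignments (scipy 1.17.1). Scripts were tested on simulated data. The named genes are the 10 members, Abat, Aldh5a1, the 2 of smallest p in each of 7 pathway lists and the most alike gene of each member, of which 1 is not reported here. Dhtkd1 follows from that rule. Members and lists were chosen with earlier results of these data known. Alternatives covered size factors, filter, DESeq2 1.42.0, limma-voom (limma 3.58.1), the title range, lens and pigment epithelium terms, and libraries left out. The planned comparison of protein sequences was not run.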

Additional observations from a re-analysis of the deposited data

Results flagged for a closer look

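The 10 genes, the 6 subunit ratios and the named pathway genes were each examined by treatment group, 62 groups of 5 libraries. The ratios reuse the values of the 10 genes, so these groups are not all independent. In 5 groups the highest or lowest library stood far off, a rate that chance alone brings to about 3.1 groups (1 in 20). Ogdh was low in vehicle 835, at 259 CPM against 271 to 276 CPM in the other vehicle libraries. Abat was high in vehicle 835, at 142 CPM against 129 to 131 CPM. Mdh1 was low in vehicle 2345, at 260.2 CPM against 279 to 286 CPM. Gpt2 was high in vigabatrin 2347, at 12.9 CPM against 11.9 to 12.1 CPM. Dhtkd1 was high in vigabatrin 2429, at 10.9 CPM against 9.23 to 9.66 CPM.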

How the results depend on the processing

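The number of the 10 genes past the threshold was 0 under every alternative run, and from 7 to 8 of them had lower means when 1 library was left out, with medians between -0.051 and -0.027. With the title range term 3 were lower and the median was 0.013. With the marker terms 7 were lower (median -0.017), and after removal of the lens-rich libraries 6 (median -0.0094). The genes called among all tested numbered 1, against 0 without the filter, with the title range term, with the lens and pigment epithelium terms and without the lens-rich libraries, 85 with the DESeq2 Wald test, 3 with limma-voom, and 0 to 39 when 1 library was left out (39 without vehicle 2345). With the title range term the sign turned for Ogdh (-0.0026), Dlst (0.012), Sucla2 (0.069), Suclg1 (0.014), Suclg2 (0.592), Sdha (-0.012), Sdhb (0.042), Sdhd (0.013), Fh1 (0.013), Idh3g (0.052), Idh3b (0.025), Mpc2 (0.059), Sdhaf1 (0.119), Ogdhl (-0.109) and Mdh1 (0.019). Without the lens-rich libraries it turned for Ogdh (-0.0093), Sucla2 (0.011), Suclg2 (0.171), Fh1 (0.011), Ogdhl (-0.0087) and the ratios Sucla2 to Suclg2 (-0.081) and Fh1 to Sdha (0.0056). It turned for Ogdh (-0.0047) and Suclg2 (0.058) with limma-voom and for Suclg2 (0.134) with the marker terms. None of these differences was called either way, and the cause was not tested. When 1 library was left out, the log2 fold change ran from -0.0045 to 0.019 for Ogdh, -0.026 to 0.012 for Sucla2, -0.422 to 0.205 for Suclg2 and -0.039 to 0.0043 for Fh1. The log2 ratio of Sucla2 to Suclg2 ran from -0.207 to 0.322. Depth was ample for all 10 genes (at least 245 counts per library). No paired analysis was possible because the title numbers are not shared between groups.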
